A study of Mus musculus with 8 samples.

Results

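The 30 genes described here encode enzymes of cholesterol synthesis, the proteins that sense sterols, and proteins of cholesterol uptake, traffic, storage or export. They were chosen by symbol from a list, with earlier results of these data known. All 30 matched a single row each of the 21899 genes in the deposited table. Expression was measured by RNA sequencing of whole liver, 8 h after concanavalin A (ConA), a lectin used in mice to set off hepatitis through T cells. Both groups received ConA: 4 libraries are labelled P2X4R knockdown, a genotype that the series description gives as P2X4R-/-, and 4 are labelled WT. P2X4R is the P2X4 receptor, a cation channel opened by extracellular ATP, whose gene is P2rx4. The groups are called deficient and wild type below. The labels read here give no strain, sex, age, altered exon or cell type of the deletion. Whether libraries stand for different animals is not stated either, so the p-values rest on the spread between these libraries alone, which may be technical. Livers without ConA were not analysed here.

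Cholesterol is built from acetyl-CoA. The early enzymes make mevalonate and turn it into farnesyl diphosphate, and the later enzymes join farnesyl units into squalene, close it to lanosterol and trim lanosterol to cholesterol. The transcription factor SREBP2, encoded by Srebf2, drives the genes of most of these enzymes. Scap escorts SREBP2 from the endoplasmic reticulum when sterols are low, and the Insig proteins hold Scap back when sterols are plentiful. The liver is a main site of this synthesis, and hepatocytes also store cholesterol as esters, break lysosomal esters down and export cholesterol to lipoproteins.

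P2rx4 was read first as a check of the labels. Its reads numbered 286, 401, 467 and 516 in deficient libraries 1 to 4, all below the 692, 888, 906 and 898 of the wild-type libraries, a log2 fold change of -1.18 (SE 0.19, edgeR adjusted p = 0.00481). The deficient libraries thus kept 0.442 of the wild-type level, under a genotype given both as a knockdown and as -/-, and which part of the gene these reads cover is not given in the table, so the check is of the level alone. Library totals ran from 15445285 to 16604190 counted reads. Across 11380 tested genes the edgeR quasi-likelihood test called 1055 higher and 1209 lower in deficient livers at an adjusted p under 0.05. With scaling by library size alone the split was 1731 higher and 843 lower, and the median log2 fold change of all genes moved from -0.0015 to 0.14, so changes are given relative to the TMM scale. Summed hepatocyte markers, from a list of 9, ran from 94760 to 124700 CPM in deficient and from 124400 to 144600 CPM in wild-type livers (CPM, the usual depth-scaled count, here on TMM-scaled library sizes). Of these 9 genes, 1 fell (Cps1). Summed cholangiocyte markers ran from 22.45 to 104.4 CPM in deficient and from 153.5 to 171.2 CPM in wild-type livers (4 genes, 1 fell), and summed stellate cell markers from 75.31 to 128.2 and from 128.1 to 194.2 CPM (5 genes, 2 fell). No marker had 0 reads in all libraries, and the part of these cells in the results below was not tested.

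Of the 19 synthesis enzymes 8 rose in deficient livers (42.1%, against 9.27% of all tested genes). These 8 include Fdps, which passed the expression filter through the deficient libraries, and counts of members without it are given below. Of the 30 members 12 passed the test, against 19.9% of all tested genes. Of these, 9 rose, against 9.27% of all tested genes, and 3 fell, against 10.6%. As shares of the list these are 30% and 10%, so the share that fell was near the background. The list was chosen with earlier results of these data known, so its shares are a description and not a test. The 9 that rose were Hmgcs1, Mvk, Mvd, Fdps, Sqle, Lss, Msmo1, Hsd17b7 and Insig1, of which 5 rose at least 2-fold. Scap, Soat2 and Lipa fell. The groups did not overlap for 10 members, against 24.9% of all genes: 7 were higher, against 12.7%, and 3 lower, against 12.3%. The median log2 fold change was 0.24 over the 30 members and -0.0015 over all tested genes.

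All members passed the expression filter. Fdps did so through the deficient libraries, since 4 deficient but only 2 wild-type libraries reached the filter's cutoff of 0.624 CPM. Without Fdps, 8 of 29 members rose (27.6%, against 9.27% of all tested genes), 4 of them at least 2-fold, and the median was 0.24. Then 6 members were higher without overlap (20.7%, against 12.7%). The counts depended on particular libraries: 4 members rose without deficient 3 and 4 without wild type 3, while 1 fell without deficient 3. Calls over all tested genes dropped as well. Higher genes went from 1055 to 575 without deficient 3 and to 454 without wild type 3, and lower genes from 1209 to 649 and to 528. Hmgcs1, Lss, Msmo1, Hsd17b7 and Lipa, 5 of the 12 members past the threshold, stayed past it under all 17 alternatives, and all 12 kept their direction.

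**Figure D1:**
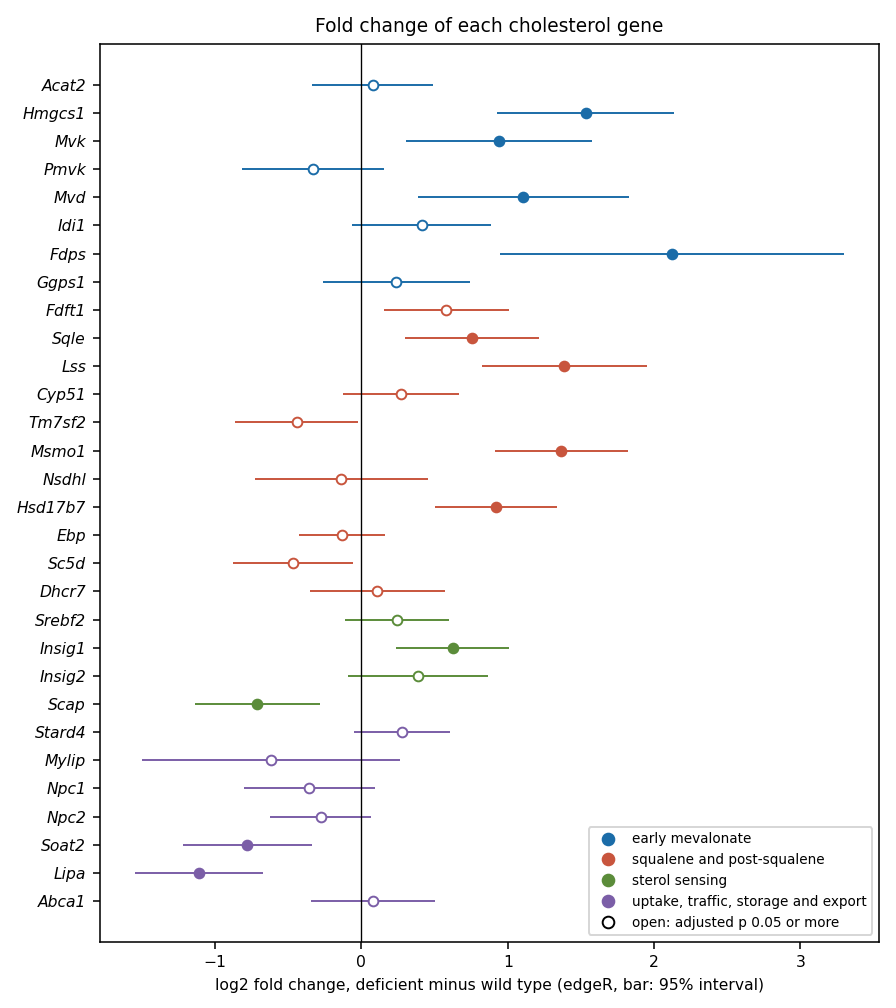
Log2 fold change of each of the 30 members, deficient minus wild type, from edgeR on 4 against 4 libraries, with 95% intervals; filled points are past an adjusted p of 0.05 and colours mark the role. The rises run from Insig1 at 0.62 to Fdps at 2.12, with 8 of 9 among synthesis enzymes. Fdps passed the expression filter through the deficient libraries. The strongest fall is Lipa at -1.11.

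The start regions of these genes were examined because several members of the same route rose. RefSeq promoter windows of 300 bases on GRCm38.p6, from 250 bases before to 50 after each annotated start, matched 24 of the 30 members. Fdps, Fdft1, Sqle, Stard4, Npc1 and Soat2 had no entry. The motifs searched on both strands were the core of the sterol regulatory element, to which SREBP proteins bind (TCACNCCAC), the NF-Y box (CCAAT) and the Sp1 box (GGGCGG), and none of these spellings contains another. The 250 bases before the start are printed for Hmgcs1, Lss, Msmo1 and Insig1, which rose, and for Lipa, which fell, 5′ to 3′ on the gene's strand. Capitals mark the motifs. The gene coordinates of the deposited table, given further below, are not of this build.
Hmgcs1, chr13:119690101-119690350, plus strand: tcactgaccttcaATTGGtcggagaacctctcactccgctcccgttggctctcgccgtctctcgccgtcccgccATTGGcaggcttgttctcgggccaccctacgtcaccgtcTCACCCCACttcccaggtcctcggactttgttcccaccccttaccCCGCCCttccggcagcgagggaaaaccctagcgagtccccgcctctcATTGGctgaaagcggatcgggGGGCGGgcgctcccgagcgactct
Lss, chr10:76531355-76531604, plus strand: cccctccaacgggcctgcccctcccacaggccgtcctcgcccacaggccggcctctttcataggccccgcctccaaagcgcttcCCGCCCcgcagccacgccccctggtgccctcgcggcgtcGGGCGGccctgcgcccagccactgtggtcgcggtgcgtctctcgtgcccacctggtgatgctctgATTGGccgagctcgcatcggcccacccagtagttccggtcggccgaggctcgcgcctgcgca
Msmo1, chr8:64733579-64733828, minus strand: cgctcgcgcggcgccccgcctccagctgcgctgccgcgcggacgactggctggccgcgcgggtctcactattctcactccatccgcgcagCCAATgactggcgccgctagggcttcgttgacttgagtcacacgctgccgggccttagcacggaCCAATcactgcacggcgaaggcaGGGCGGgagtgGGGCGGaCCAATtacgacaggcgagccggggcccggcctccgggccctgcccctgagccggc
Insig1, chr5:28071162-28071411, plus strand: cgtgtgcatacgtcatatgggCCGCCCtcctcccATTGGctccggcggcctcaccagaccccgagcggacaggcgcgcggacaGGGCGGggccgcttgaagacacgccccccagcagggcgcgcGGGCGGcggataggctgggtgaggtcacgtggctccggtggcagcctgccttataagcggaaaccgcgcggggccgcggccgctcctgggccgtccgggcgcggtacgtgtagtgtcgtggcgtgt
Lipa, chr19:34527475-34527724, minus strand: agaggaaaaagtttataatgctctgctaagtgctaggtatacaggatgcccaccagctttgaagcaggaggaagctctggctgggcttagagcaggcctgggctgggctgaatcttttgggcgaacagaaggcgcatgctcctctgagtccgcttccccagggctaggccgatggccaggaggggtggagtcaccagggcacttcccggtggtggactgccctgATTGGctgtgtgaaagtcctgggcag
A gene with several windows was counted when any of them held the motif. The sterol element core was present in Hmgcs1 alone of the 24 members, from 137 to 129 bases before the start. It was present in 1.24% of all 32851 promoter windows and in 1.47% of the 9131 tested genes with a window. Only this spelling was searched, so an element spelled otherwise would not be found. An NF-Y box stood in 21 of 24 members, against 37.4% of all windows and 43.1% of the 9131 tested genes with a window. An Sp1 box stood in 22 of 24, against 35.7% of windows and 68.2% of tested genes. All 7 matched members that rose held both boxes. Of the 15 matched members that did not pass the test, 13 held an NF-Y box and 13 an Sp1 box, so the boxes did not separate the rises from the rest. In the sequences above, Hmgcs1 and Msmo1 carry 3 NF-Y boxes each, and Lss, Insig1 and Lipa carry 1 each. A match is a description of letters, and binding was not measured.

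Among the 8 early mevalonate genes, 4 rose and 0 fell in edgeR. As shares these are 50% and 0%, against 9.27% and 10.6% of all tested genes. At an unadjusted p under 0.05 the counts were again 4 and 0, and DESeq2 and the limma tests also called 0 lower. The median log2 fold change was 0.68, and 0.41 without Fdps. The rises were Hmgcs1, Mvk, Mvd and Fdps, or the first 3 of these without Fdps, and Acat2, Pmvk, Idi1 and Ggps1 did not pass. Leaving out wild type 2, wild type 4 or deficient 1 gave 2 rises, and leaving out deficient 3 or wild type 3 gave 1.

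Hmgcs1 (ENSMUSG00000093930; chromosome 13, 120151915 to 120169796 on the plus strand as the table lists it, build not given in the sources used here) encodes the cytosolic synthase that makes HMG-CoA. In deficient libraries 1 to 4 it stood at 378, 152.6, 235.2 and 225.8 CPM, and in the wild-type libraries at 110.5, 97.45, 57.11 and 77.68 CPM. Every deficient library lay above every wild-type library, with deficient 1 the highest and deficient 2 closest to wild type. Means were 247.9 ± 94.3 and 85.7 ± 23.4 CPM (SD, n = 4). Hmgcs1 was 2.89-fold higher, a log2 rise of 1.53 (SE 0.28, edgeR adjusted p = 0.00664), the scale of every rise and fall below. Its rise was between 1.26 and 1.71 with any single library left out. An antisense transcript, Gm48342, shares 462 bases with Hmgcs1 in the GENCODE M21 annotation.

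Mvk and Mvd encode enzymes that phosphorylate mevalonate and decarboxylate its diphosphate. Mvk stood at 15.27, 10.37, 23.6 and 16.72 CPM in deficient libraries and at 13.54, 7.663, 6.133 and 6.986 CPM in wild type. Mvd stood at 49.6, 18.45, 54.49 and 30.28 CPM in deficient libraries and at 26.64, 17.44, 11.54 and 15.32 CPM in wild type. For both genes wild type 1 lay above deficient 2, so the groups overlapped. Mvk rose by 0.94 (SE 0.29, edgeR adjusted p = 0.041) and Mvd by 1.11 (SE 0.33, edgeR adjusted p = 0.036). Mvk missed the threshold without deficient 1, 3 or 4 (edgeR adjusted p = 0.0623, 0.12 and 0.0813) or wild type 2, 3 or 4 (adjusted p = 0.0827, 0.115 and 0.0896), over alternatives between 0.0142 and 0.12. Mvd missed it without deficient 1 or 3 (adjusted p = 0.0851 and 0.107) or wild type 2, 3 or 4 (adjusted p = 0.0691, 0.103 and 0.0778), over alternatives between 0.00798 and 0.107. Galnt2l, on the opposite strand, covers all 9822 bases of the Mvd span and holds 0 reads.

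Fdps, which encodes farnesyl diphosphate synthase, had few reads. Its counts were 63, 47, 151 and 62 in deficient libraries and 38, 5, 14 and 10 in wild type. No wild-type library reached a deficient one on the CPM scale, where deficient libraries lay between 2.92 and 8.734 and wild-type libraries between 0.3515 and 2.405. Fdps rose by 2.12 (SE 0.54, edgeR adjusted p = 0.0199). The rise was 1.65 without deficient 3 (adjusted p = 0.0684), 2.05 without wild type 3 (adjusted p = 0.0606) and 2.86 without wild type 1, with adjusted p between 0.000848 and 0.0684 over all alternatives. In the limma test on log2(FPKM + 1) it was 0.78, on a scale that understates changes of low genes. The count itself is uncertain. In GENCODE M21, 4 processed pseudogenes match Fdps at 96.1% to 98.9% identity over 605 to 1066 bases. By the coordinates of the deposited table, the protein-coding entry Gm43738 also covers 7512 of the 8372 bases of the Fdps span on the same strand. Gm43738 matches Fdps at 100% identity over 929 bases in GENCODE M21 and holds 0 reads. How reads that match both were counted is not given in the sources used here.

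The other early genes had intervals that spanned no change. Idi1, the isomerase of isopentenyl diphosphate, averaged 41.1 ± 4.40 CPM against 30.9 ± 10.4 CPM in wild type (SD, n = 4), a difference of 0.41 (95% interval -0.06 to 0.89), and passed in 1 of 17 alternatives (without wild type 1, edgeR adjusted p = 0.0495, over alternatives up to 0.446). Ggps1, which makes geranylgeranyl diphosphate for protein prenylation, differed by 0.24 (interval -0.27 to 0.74). Acat2, the cytosolic thiolase that starts the route, differed by 0.08 (interval -0.34 to 0.49), and Pmvk, the second kinase of the arm, by -0.33 (interval -0.82 to 0.15). Acat2 shares 1477 bases at 97.7% identity with Acat3, so its reads may be split between them. Idi1 and Ggps1 also have processed pseudogenes at 97.2% identity or more.

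Of the 11 genes that make squalene and turn it into cholesterol, 4 rose and 0 fell in edgeR, with a median of 0.27. As shares these are 36.4% and 0%, against 9.27% and 10.6% of all tested genes. At an unadjusted p under 0.05 the counts were 5 and 2, and DESeq2 and the limma tests called 0 lower. The 4 rises act at squalene epoxidation, ring closure and the removal of methyl groups. The last steps, encoded by Ebp, Sc5d and Dhcr7, did not pass. Adjacent steps of the same route therefore differed in call, which was not tested as a difference between genes.

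Sqle encodes squalene epoxidase, a rate-limiting enzyme after squalene. It stood at 200.5, 248.8, 272.8 and 202.1 CPM in deficient libraries and at 119.8, 167.8, 93.25 and 166.3 CPM in wild type, without overlap. Sqle rose by 0.76 (SE 0.21, edgeR adjusted p = 0.0273). It missed the threshold without deficient 3, wild type 1 or wild type 3 (edgeR adjusted p = 0.0744, 0.0616 and 0.0788), over alternatives between 0.00467 and 0.0788.

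Lss encodes lanosterol synthase, which closes the sterol rings. Its levels were 68.97, 37.71, 90.06 and 54.35 CPM in deficient libraries and 31.7, 23.27, 17.87 and 23.14 CPM in wild type. The groups were apart, with deficient 3 the highest and wild type 3 the lowest of the 8. Lss rose by 1.39 (SE 0.26, edgeR adjusted p = 0.00724), and by 1.16 to 1.57 with any library left out. Its table entry is on chromosome 10, 76367422 to 76392972, plus strand.

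Msmo1 encodes the sterol methyl oxidase, an early enzyme in removing methyl groups from the sterol ring, and had the smallest p of the 30 members. Deficient libraries held 187.5, 118, 142.5 and 164.3 CPM and wild-type libraries 59.04, 77.69, 42.4 and 58.64 CPM. The lowest deficient library exceeded the highest wild-type library by a wide gap. Means were 153.1 ± 29.8 and 59.4 ± 14.4 CPM (SD, n = 4), and Msmo1 rose by 1.36 (SE 0.21, edgeR adjusted p = 0.00433). The table lists it on chromosome 8, 65171173 to 65186826, minus strand.

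Hsd17b7, the keto-sterol reductase of the same demethylation complex, rose by 0.92 (SE 0.19, edgeR adjusted p = 0.0104). Its levels were 69.33, 60.13, 93.3 and 59.98 CPM in deficient libraries and 30.63, 46.61, 38.84 and 33.46 CPM in wild type, with no overlap. Nsdhl, the decarboxylating enzyme that works between them, did not pass. It ran from 33.79 to 53.45 CPM in deficient and from 26.71 to 72.58 CPM in wild-type libraries, with wild type 1 the highest and wild type 3 the lowest of the 8. The Nsdhl difference was -0.14 (interval -0.73 to 0.45), and its sign turned without wild type 1 (0.19) and in limma on log2(FPKM + 1) (0.072).

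Fdft1, squalene synthase, lay just outside the threshold, at 95.91 to 161.1 CPM in deficient and 73.86 to 100.5 CPM in wild-type libraries. Its difference was 0.58 (SE 0.20, edgeR adjusted p = 0.0553). It passed in 6 of 17 alternatives, among them DESeq2 (adjusted p = 0.0268) and scaling by library size alone (adjusted p = 0.0273), over alternatives between 0.0261 and 0.153. Fdft1 and Ctsb, a gene on the opposite strand with 76485 reads in all, share 774 bases, and the use of strand in counting is not given in the sources used here. Ctsb itself differed by -0.28 (edgeR adjusted p = 0.226).

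The remaining post-squalene genes did not pass. Cyp51, the lanosterol demethylase, differed by 0.27 (interval -0.13 to 0.67), Dhcr7, the final reductase of the Kandutsch-Russell route, by 0.11 (interval -0.35 to 0.57) and Ebp, a sterol isomerase, by -0.13 (interval -0.43 to 0.16), or 0.0095 with library size alone. Tm7sf2, a sterol reductase, averaged 70.4 ± 10.1 CPM against 95.5 ± 22.2 CPM in wild type (SD, n = 4). Its difference was -0.44 (interval -0.86 to -0.02, edgeR adjusted p = 0.125). Sc5d, a sterol desaturase, was at 97.9 ± 16.1 and 135.1 ± 29.8 CPM (SD, n = 4). The Sc5d difference was -0.47 (interval -0.88 to -0.05, edgeR adjusted p = 0.0999). Tm7sf2 and Sc5d are the 2 genes of this group that were lower at an unadjusted p under 0.05. Tm7sf2 shares 532 bases with Vps51 on the same strand.

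**Figure D2:**
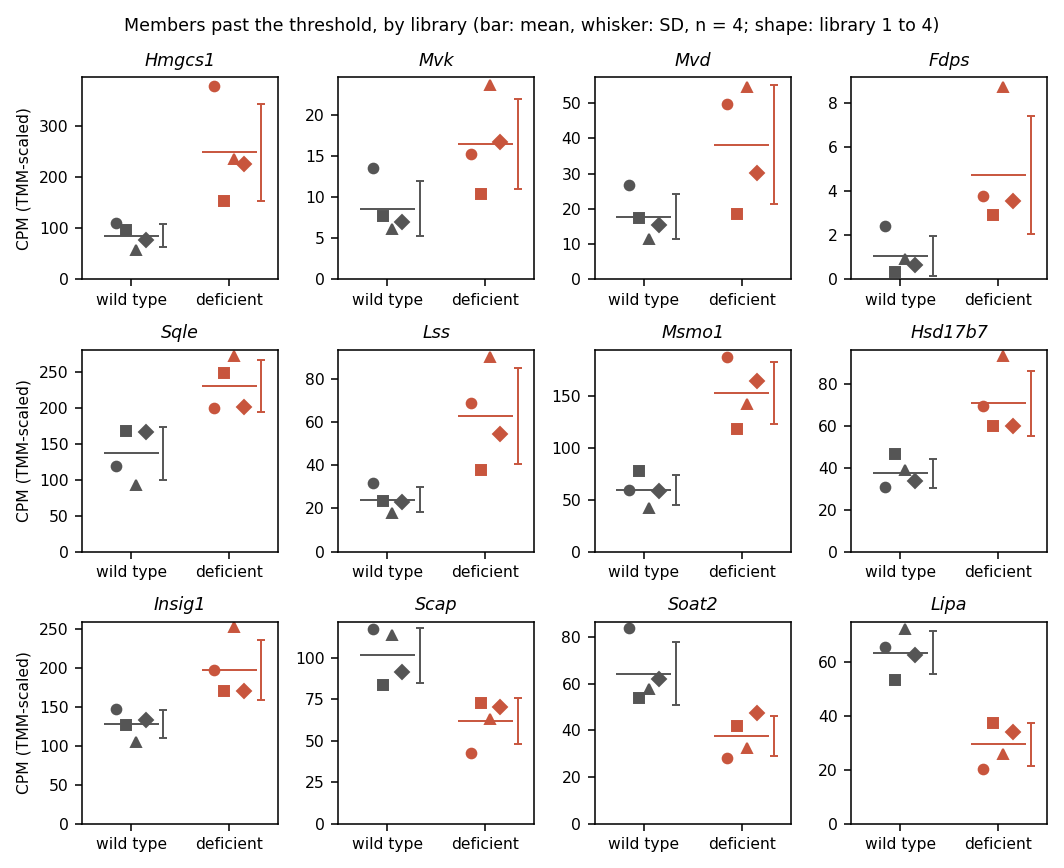
CPM (TMM-scaled, axis from 0) of the 12 members past the threshold in each of 4 wild-type (grey) and 4 deficient (red) libraries; symbols mark libraries 1 to 4, horizontal bars the mean and whiskers the SD. Only Mvk and Mvd overlap between groups, where wild type 1 (13.54 and 26.64 CPM) lies above deficient 2 (10.37 and 18.45 CPM).

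Of the 4 sensing genes, 1 rose and 1 fell, so a single call is 25% of the list, against 9.27% and 10.6% of all tested genes. The regulator Srebf2 itself was not past the threshold. Insig1, which retains Scap and is itself a target of SREBP, stood at 197.9, 170.6, 252.7 and 170.7 CPM in deficient libraries and at 148.1, 127.5, 104.7 and 133.6 CPM in wild type. All deficient libraries were above all wild-type libraries. Insig1 rose by 0.62 (SE 0.18, edgeR adjusted p = 0.0307). The call ended without deficient 1 or 3 (edgeR adjusted p = 0.0536 and 0.0806) or wild type 2, 3 or 4 (adjusted p = 0.0637, 0.0978 and 0.0578), over alternatives between 0.00634 and 0.0978.

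Scap, the escort of SREBP proteins, moved in the opposite direction to Insig1. Deficient libraries held 42.24, 72.62, 62.88 and 70.09 CPM and wild-type libraries 117.1, 83.6, 113.7 and 91.2 CPM, again without overlap. Scap fell by 0.71 (SE 0.20, edgeR adjusted p = 0.0265). The call was lost with library size alone (-0.57, adjusted p = 0.0508) and in limma on log2(FPKM + 1) and log2(FPKM + 0.1) (adjusted p = 0.0501 and 0.0661). It was also lost without deficient 1 or 3 (adjusted p = 0.05 and 0.0604) or wild type 1 or 3 (adjusted p = 0.0534 and 0.0808), over alternatives between 0.00513 and 0.0808.

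Srebf2 stood at 73.86, 76.16, 100.8 and 73.19 CPM in deficient libraries and at 62.39, 78.53, 59.81 and 72.74 CPM in wild type. Deficient 3 was high and the other deficient libraries lay within or near the wild-type range. The difference was 0.24 (interval -0.11 to 0.60, edgeR adjusted p = 0.309). Insig2, whose liver transcript is regulated apart from SREBP, was at 231.1 ± 68.8 and 176.7 ± 30.7 CPM (SD, n = 4), a difference of 0.39 (interval -0.09 to 0.87).

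Of the 7 genes of uptake, traffic, storage and export, 0 rose and 2 fell in edgeR (28.6%, against 10.6% of all tested genes), with a median of -0.35. At an unadjusted p under 0.05 the counts were the same, and DESeq2 and the limma tests called 0 higher. The falls were Lipa and Soat2. None of the 7 encodes a receptor that takes up cholesterol, and only Mylip bears on uptake. In whole liver, fewer cells of a type and less RNA per cell cannot be told apart.

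Lipa encodes lysosomal acid lipase, which frees cholesterol from esters in the lysosome. It stood at 20.28, 37.58, 25.8 and 34.18 CPM in deficient libraries and at 65.81, 53.43, 72.54 and 62.55 CPM in wild type, a clear gap between the groups. Means were 29.5 ± 7.88 and 63.6 ± 7.94 CPM (SD, n = 4). Lipa fell by 1.11 (SE 0.20, edgeR adjusted p = 0.00647), to 0.463 of the wild-type level. It lies on chromosome 19, 34469718 to 34504874, minus strand in the table. Macrophages also express Lipa, and of 9 markers of Kupffer cells, the macrophages resident in liver, 3 fell. None of the 9 had 0 reads in all libraries. Their sum ran from 42.09 to 60.22 CPM in deficient and from 55.73 to 182.3 CPM in wild-type livers, with wild type 1 the highest and the other wild-type libraries at 88.65, 63.47 and 55.73 CPM. Summed markers of recruited monocytes and macrophages, 7 genes of which 1 of 6 tested rose, ran from 913.5 to 1279 CPM in deficient and from 603.4 to 1470 CPM in wild-type livers. The part of these cells in the fall of Lipa was not tested.

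Soat2 encodes the hepatocyte enzyme that esterifies cholesterol for storage and secretion. Its levels were 28.3, 41.93, 32.45 and 47.34 CPM in deficient libraries and 83.9, 53.86, 57.7 and 61.91 CPM in wild type, with no overlap. Soat2 fell by 0.78 (SE 0.20, edgeR adjusted p = 0.0212). The call was lost when deficient 3 was left out (edgeR adjusted p = 0.0606) and in limma on log2(FPKM + 0.1) (adjusted p = 0.0552), over alternatives between 0.00295 and 0.0606. The summed hepatocyte markers given above lay below every wild-type library in 3 of 4 deficient libraries, and their part in this fall was not tested.

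The lysosomal exporters Npc1 and Npc2, which pass free cholesterol out of the lysosome, did not pass the test. Npc1 was at 25.2 ± 4.75 and 32.2 ± 8.67 CPM and Npc2 at 69.8 ± 9.78 and 84.6 ± 10.6 CPM in deficient and wild-type livers (SD, n = 4), with differences of -0.35 (interval -0.80 to 0.09) and -0.28 (interval -0.62 to 0.07). The span of Npc1 shares 967 bases with Rmc1 on the opposite strand. Stard4, a cytosolic sterol carrier, differed by 0.28 (interval -0.05 to 0.61). Abca1, the exporter of cholesterol to high-density lipoprotein, was at 761 ± 155 and 721 ± 130 CPM (SD, n = 4), a difference of 0.08 (interval -0.34 to 0.50). Mylip, a ubiquitin ligase that marks a lipoprotein receptor for degradation, had 17 to 57 reads per library and differed by -0.62 (interval -1.5 to 0.26).

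**Figure D3:**
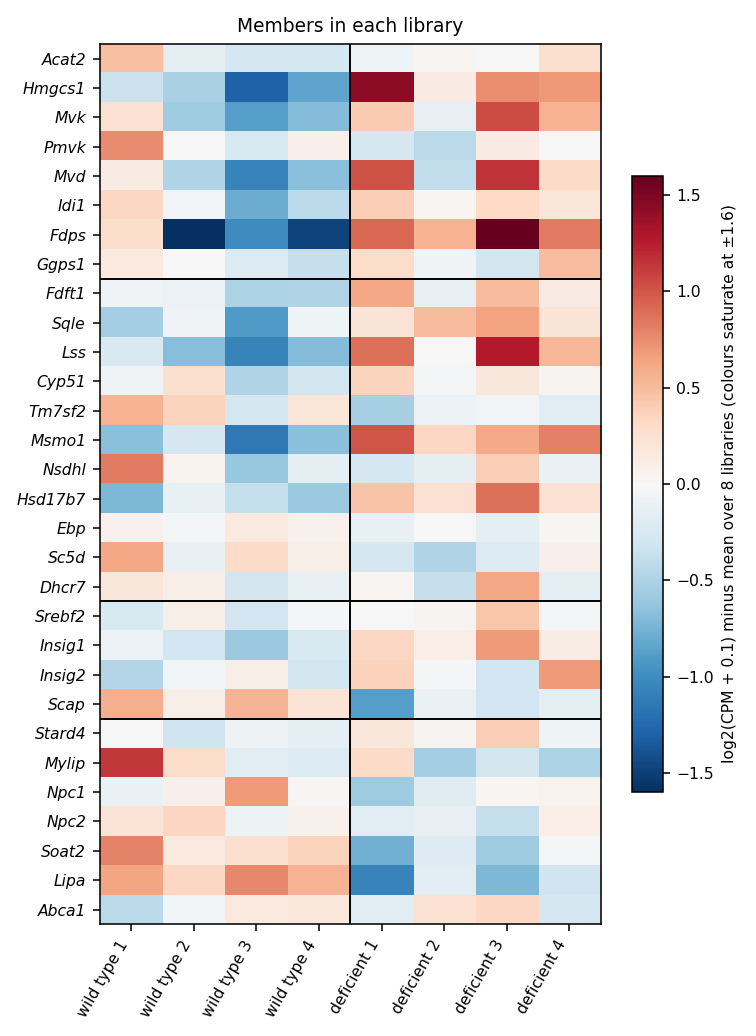
Log2(CPM + 0.1) of each member in each library minus its mean over the 8 libraries (colour, saturating at ±1.6), with lines between roles and between the 4 wild-type and 4 deficient libraries. Wild type 3 is the lowest wild-type library for 13 of 19 synthesis enzymes, and deficient 3 the highest deficient library for 10.

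Within each genotype the level of the 19 synthesis enzymes differed by library. Among wild-type libraries, wild type 1 was the highest for 14 enzymes and wild type 3 the lowest for 13. Among deficient libraries, deficient 3 was the highest for 10 and deficient 2 the lowest for 12. As a median over the 19 enzymes, the deviation of log2 CPM from the mean over 8 libraries was 0.36, -0.02, 0.51 and 0.21 in deficient libraries 1 to 4 and 0.16, -0.09, -0.50 and -0.37 in wild type. The groups overlapped on this measure, since wild type 1 lay above deficient 2, and 12 of 19 enzymes were higher in wild type 1 than in deficient 2. The 11 members that are not synthesis enzymes had medians between -0.30 and -0.03 in deficient and between 0.005 and 0.09 in wild-type libraries. Enzymes share libraries and a regulator, so these figures are a description of 8 libraries. Wild type 1 also had the highest summed Kupffer cell markers and wild type 3 and 4 had low summed neutrophil markers (32.76 and 27.22 CPM, against 81.35 to 176.4 CPM in the other libraries). Of 8 neutrophil markers 2 rose, and the part of either cell type in the enzyme levels was not tested.

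Levels of different genes were compared per length, in FPKM as deposited by the authors. In wild-type livers the highest of the 30 was Abca1 at 65.9 ± 10.7 FPKM, followed by Ebp at 58.8 ± 4.03, Insig2 at 48.1 ± 6.66 and Insig1 at 39.6 ± 6.95 (SD, n = 4). Abca1 and Ebp differed by less than the SD of Abca1, and the steps from Ebp to Insig2 and from Insig2 to Insig1 were larger than the SD of either gene. In deficient livers Abca1, Insig2 and Insig1 came first, at 77.2 ± 15.6, 70.0 ± 21.0 and 67.5 ± 14.8 FPKM, within their spread. Hmgcs1 stood 11th of 30 in wild type, at 17.8 ± 5.30 FPKM, and 5th in deficient livers, at 57.1 ± 22.8 FPKM. Msmo1 was 17th at 9.19 ± 2.15 and 9th at 26.3 ± 5.62 FPKM, whereas Soat2 was 5th at 27.8 ± 7.0 and 12th at 17.8 ± 3.82 FPKM. Fdps was at 0.249 ± 0.221 FPKM in wild-type and 1.20 ± 0.70 FPKM in deficient livers (SD, n = 4). Mylip was at 0.617 ± 0.341 and 0.442 ± 0.151 FPKM (SD, n = 4). Both were the lowest of the 30 in both groups as deposited. The near copies given above leave the Fdps count uncertain, and with it the place of Fdps.

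**Figure D4:**
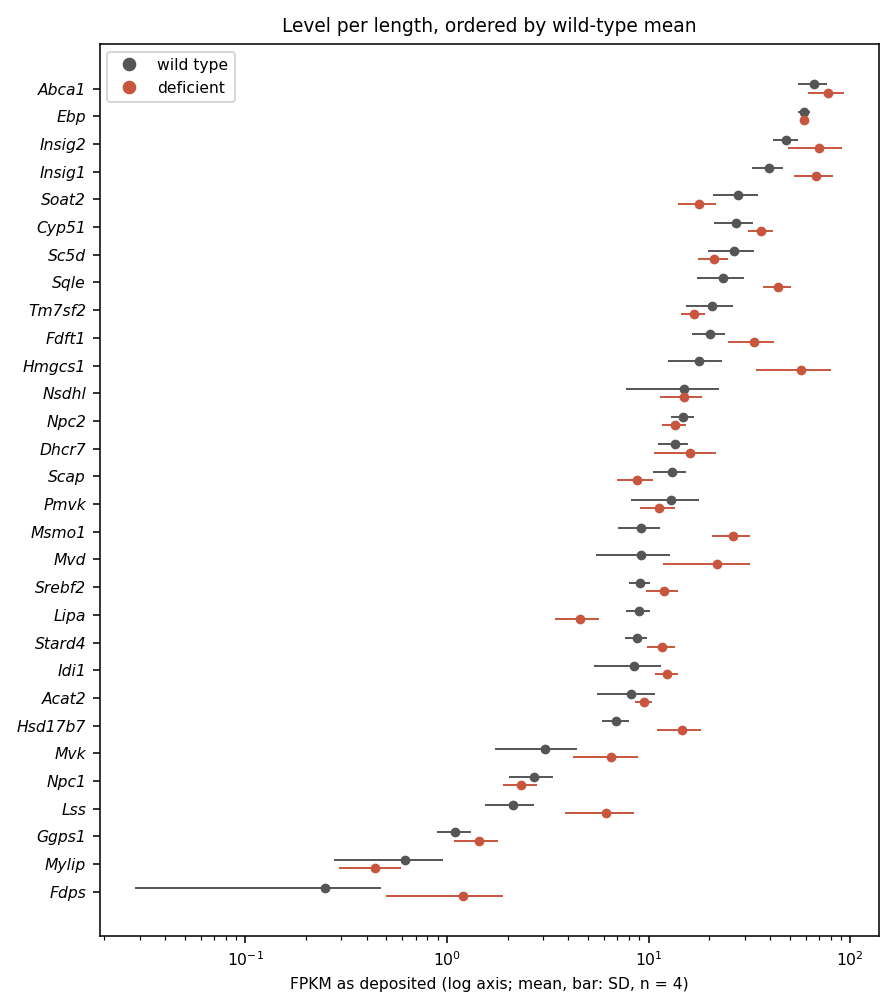
FPKM as deposited (log axis) of the 30 members, mean and SD of 4 wild-type (grey) and 4 deficient (red) libraries, ordered by the wild-type mean. Levels span from Fdps at 0.249 to Abca1 at 65.9 FPKM in wild type, and the Fdps level is uncertain because of its near copies. Hmgcs1 moves from 17.8 to 57.1 FPKM and Lipa from 8.92 to 4.54 FPKM.

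A further 42 genes of the pathway, listed with earlier results of these data known, were read from the same fit. Of 39 tested, 5 rose (12.8%) and 6 fell (15.4%), against the 9.27% and 10.6% given above, with a median of -0.10. Among 9 genes of SREBP processing and of regulated degradation in the endoplasmic reticulum, 1 rose and 3 fell. As shares these are 11.1% and 33.3%, against 9.27% and 10.6% of all tested genes. Srebf1, which encodes the SREBP of fatty acid synthesis, fell by 1.0 (SE 0.19, edgeR adjusted p = 0.00816), from 128.9 ± 27.1 to 64.4 ± 11.9 CPM (SD, n = 4), while Srebf2 did not pass. Erlin1, which binds cholesterol in the endoplasmic reticulum, fell by 0.64 and its partner Erlin2 rose by 0.64. The sterol-responsive ubiquitin ligase gene Rnf145 fell by 0.76. Srebf1 passed in all 17 alternatives. Erlin1 passed in 14 and missed without deficient 3, wild type 2 or wild type 3 (edgeR adjusted p between 0.0511 and 0.0545). Erlin2 passed in 13 and missed without deficient 3 or wild type 1, 2 or 4 (up to 0.0738), and Rnf145 passed in 10 and missed without deficient 3 or 4 or wild type 1 or 2, among others (up to 0.104).

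Isoprenoid branches use farnesyl diphosphate for other ends. Of 8 genes there, 3 rose (37.5%, against 9.27% of all tested genes) and 0 fell (against 10.6%) in edgeR. At an unadjusted p under 0.05, and in DESeq2 and limma, 0 were lower. Dhdds, for dolichol, rose by 0.95 (SE 0.24, edgeR adjusted p = 0.0185) from 19.4 ± 4.75 to 37.6 ± 11.9 CPM (SD, n = 4), in all 17 alternatives. Fnta and Fntb, the subunits of protein farnesyltransferase, rose by 0.63 and 0.94 (edgeR adjusted p = 0.0278 and 0.035). Both missed the threshold without deficient 1 or 3 or wild type 2, 3 or 4, and Fnta also without deficient 4 (adjusted p up to 0.0862 for Fnta and 0.0971 for Fntb over alternatives). Among 11 tested genes of uptake, traffic and hydrolysis, Osbp, a sterol carrier between endoplasmic reticulum and Golgi, rose by 0.68 and Gramd1a, a sterol carrier from the plasma membrane, fell by 1.24 (edgeR adjusted p = 0.0163 and 0.0179), the latter not without deficient 3 (0.0539). Cyb5a and Cyb5r3, which supply electrons to sterol oxidation among other reactions, fell by 0.64 and 0.63. Cyb5a missed the threshold without wild type 3 (edgeR adjusted p = 0.054), and Cyb5r3 without deficient 1 or 4 or wild type 3, among others (up to 0.0875). Of 5 genes of LXR and sterol export, 0 rose and 0 fell in edgeR, also at an unadjusted p under 0.05 and in DESeq2 and limma. Over all tested genes 9.27% rose and 10.6% fell in edgeR. Naming Erlin2, Rnf145, Fnta, Fntb and Cyb5r3 was decided after their values were seen.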

How the data were processed

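RNA was measured in 8 whole-liver libraries, 4 per group. Trizol extraction, selection on poly-T beads and Illumina NovaSeq sequencing are stated per the labels' protocols. HISAT2 2.0.5 and cutadapt are named in the submitters' processing notes; for the counter, its use of strand, the annotation and the genome build of the table nothing was found: not given in the sources used here. The deposited table holds raw read counts per gene and FPKM values, both made by the authors; each was used as deposited. Of 21899 rows, 5754 had no reads and 10519 did not pass edgeR's filterByExpr (minimum of 10 reads, cutoff 0.624 CPM), leaving 11380.

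Counts were tested in R 4.3.3 with edgeR 4.0.16 (TMM, quasi-likelihood, two-sided), with Benjamini-Hochberg adjustment over all tested genes and a threshold of 0.05. The test was tested on simulated data. DESeq2 1.42.0 and limma 3.58.1 served as alternatives, limma on log2 FPKM plus a pseudocount and as voom. CPM are TMM-scaled. Replicates of a group differed beyond sampling noise. Near copies were read from GENCODE M21 on GRCm38, overlaps from the gene coordinates of the deposited table, and promoters from RefSeq on GRCm38.p6. All 30 members are named, with values per library for those past the threshold and for Srebf2; of the other pathway genes the 6 with the smallest p are named by rule. Members, marker lists and pathway lists were chosen with earlier results of these data known.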

Additional observations from a re-analysis of the deposited data

Results flagged for a closer look

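Among 84 groups of 4 libraries checked, 5 held a library that lay far from the other 3 (Dixon's ratio of its gap to the group's range, past the 95% critical value), and chance flags about 1 group in 20. Among deficient libraries, deficient 3 stood apart for Fdps at 8.734 CPM (next 3.802), for Srebf2 at 100.8 CPM (next 76.16) and for Erlin2 at 22.79 CPM (next 17.02). Among wild-type libraries, wild type 1 stood apart for Acat2 at 30.63 CPM (next 19.83) and for Cyb5r3 at 297.8 CPM (next 210.8). Without deficient 3, Fdps was higher by 1.65 on the log2 scale (edgeR adjusted p = 0.0684, over alternatives between 0.000848 and 0.0684).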

How the results depend on the processing

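The 12 members past the threshold kept their direction under all 17 alternatives. Members that had not passed could turn in sign. Nsdhl came to 0.072 and 0.082 in limma on log2 FPKM plus 1 and plus 0.1, and Ebp to 0.011 in each of these and 0.0095 with library size alone. With a library left out, Acat2 ran from -0.011 to 0.28 (lowest without deficient 4), Nsdhl from -0.32 to 0.19 (highest without wild type 1), Dhcr7 from -0.13 to 0.23 (lowest without deficient 3) and Abca1 from -0.050 to 0.16 (below 0 without wild type 1 or deficient 3). Calls over all genes were 1731 higher with library size alone, and 1586 higher and 771 lower in limma on log2(FPKM + 0.1). In the latter 1 member fell, and 1 of uptake, traffic, storage and export. No sensing gene fell (0) with library size alone or in either limma test on FPKM.

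With any library left out, calls ran from 454 to 1079 higher and 528 to 1309 lower over all genes. Among members 4 to 10 rose and 1 to 3 fell. By role, 1 to 5 early and 3 to 5 post-squalene genes rose, and 0 to 1 sensing genes rose and 0 to 1 fell. Among genes of uptake, traffic, storage and export, 1 to 2 fell. The cause was not tested.

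Replicate numbers are shared between groups, but same-numbered libraries did not deviate together (r = 0.13, -0.11, 0.07 and -0.11 across 11380 genes, and 0 of 4 matched best with its own number). With the number as a block, 7 members rose and 2 fell, with 0 sensing genes called in either direction: Mvk, Insig1 and Scap were not called (edgeR adjusted p = 0.0575, 0.0671 and 0.0571). Mylip lay under the FPKM minimum of 0.5 and was not tested by limma on FPKM.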
